A study of Mus musculus with 21 samples.

Results

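Matrix metalloproteinases (Mmp genes), ADAMTS proteases (Adamts genes) and tissue inhibitors of metalloproteinases (Timp genes) were followed in RNA-seq of mouse aortic valves. The members are all 39 of the 20872 genes listed whose symbol is Mmp or Adamts with a number or Timp1 to Timp4: 17 Mmp, 18 Adamts and 4 Timp genes. All 21 libraries came from mice that lack Terc, the RNA template of telomerase, in generation 2 of that line, so the lack of Terc is shared by every group, controls included. Mice heterozygous for Notch1 (N1+/-, labelled N1het) gave 3 libraries from stenotic valves after XCT790, 3 from stenotic valves after control solvent, 5 from healthy valves after XCT790 and 6 from healthy valves after solvent. N1+/+ mice (WT) gave 4 libraries from healthy valves after solvent. Notch1 encodes a receptor, loss of 1 copy of which leads to calcific valve disease in humans, and XCT790 is an inverse agonist of the nuclear receptor ERRα. Daily injections into the peritoneum, of solvent or of XCT790 at 5 mg/kg/day, began when the mice were 4 weeks old and lasted 4 weeks. In 6 libraries a label field contradicts the title: healthy XCT790 libraries 1 to 3 carry solvent there, and stenosis libraries 1 to 3 carry XCT790. Groups here follow the titles. Whether the libraries within a group are different mice is not stated in the labels, so p-values measure only the spread between libraries, which may be technical.

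Heart valve leaflets are sheets of collagen, proteoglycan and elastic fibre kept by valve interstitial cells. Matrix metalloproteinases cut collagens, gelatin, elastin and cell surface proteins. ADAMTS proteases trim procollagens and cut proteoglycans such as versican and aggrecan. TIMPs bind the active site of these enzymes, and TIMP3, which stays in the matrix, also inhibits several ADAMTS proteases.

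Levels are FPKM, the authors' fragment counts scaled by gene length and by library size, which lets genes be compared. Differences are on log2(FPKM + 1) with their standard error (SE) from limma, fitted to the 14966 genes with a mean of at least 1 FPKM, and a gene was called at a Benjamini-Hochberg adjusted p under 0.05. Of the members 27 entered the test (11 Mmp, 12 Adamts and 4 Timp genes). The other 12 lay below that level and were not tested. They are described by level only.

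Libraries held 8.42 to 27.3 M reads (M for megareads). A set of 6 libraries with over 16 M reads (1 stenosis XCT790, 2 healthy XCT790, 2 healthy and 1 WT) had 0.0581% to 0.521% of reads on mitochondrially encoded genes, against 0.851% to 8.40% in the other 15. Notch1 itself averaged 26.8 ± 7.75 FPKM in stenosis XCT790, 24.9 ± 3.45 in stenosis, 32.4 ± 8.91 in healthy XCT790, 35.6 ± 9.37 in N1het healthy and 33.9 ± 8.93 FPKM in WT valves (SD, n = 3, 3, 5, 6 and 4). Each N1het group overlapped the WT range of 26.6 to 46.5 FPKM. Fibroblast and valve interstitial cell markers, 15 genes against which the labelled tissue was checked, summed to 6716 FPKM or more in every library. Heart muscle markers summed to 36.1 to 4862 FPKM, with the highest library of each group between 2015 and 4862 FPKM. In these bulk samples, fewer cells of a type and less RNA per cell cannot be told apart.

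Sequences upstream of 3 neighbouring protease genes are shown because they carry the AP-1 motif TGANTCA, through which many Mmp genes are induced. One of them, Mmp12, had the largest positive stenosis difference of the members averaged over agents, which was not called. The motif reads the same on both strands. It was searched in the 250 bases before each start site of the RefSeq promoter table (GRCm38.p6), in which 27 of the 39 members matched with 29 windows. It occurred in 3 of the 29 windows (10.3%), against 6.75% of all 32851 windows in the table. The 3 windows belong to Mmp13 (chr9:7272414-7272513), the second start site of Mmp12 (chr9:7347274-7347373) and Mmp3 (chr9:7445722-7445821), all on the plus strand. Each line gives the 100 bases that end at the start site, with the motif in capitals.
Mmp13: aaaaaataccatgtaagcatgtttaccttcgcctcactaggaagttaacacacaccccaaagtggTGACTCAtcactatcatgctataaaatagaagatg
Mmp12: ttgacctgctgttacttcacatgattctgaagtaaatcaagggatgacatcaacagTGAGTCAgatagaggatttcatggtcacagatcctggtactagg
Mmp3: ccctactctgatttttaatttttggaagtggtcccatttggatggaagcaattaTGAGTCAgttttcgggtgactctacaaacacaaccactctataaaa
The motif began 35 bases before the start site of Mmp13, 44 before that of Mmp12 and 46 before that of Mmp3. A match of letters is a description and not a shown binding site.

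By level the inhibitors outweighed the proteases. Over the 21 libraries, the 4 Timp genes made up 67.2% ± 3.82 of the summed FPKM of the 39 members (SD; range 59.2% to 74.3%). Timp3 averaged 661 FPKM (371 to 1542), above 99.4% of the genes tested, Timp2 337 FPKM (187 to 535) and Timp1 163 FPKM (48.1 to 425). Timp4, which is mostly a gene of heart muscle and brain, stood at 0 in 13 libraries. Timp3 exceeded Timp2 in 21 of 21 libraries and Timp2 exceeded Timp1 in 18, although the ranges of neighbours in this order overlapped.

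Among the proteases Mmp2, the gelatinase A that interstitial cells secrete, stood first with 233 FPKM (108 to 574) and supplied 53.8% ± 8.21 of the summed Mmp FPKM (SD, n = 21). Mmp23, which encodes a protease of the cell membrane, averaged 51.1 FPKM (29.2 to 116) and Mmp14, the membrane-type enzyme that activates pro-MMP2 together with TIMP2, 48.3 FPKM (28.3 to 108). Mmp23 exceeded Mmp14 in 11 of 21 libraries, so these 2 were not ordered. Mmp3, the stromelysin, averaged 31.2 FPKM and Mmp13, the main collagenase of rodents, 19.9 FPKM. These chromosome 9 neighbours also spread widely, Mmp3 over 2.56 to 61.9 FPKM and Mmp13 over 1.35 to 36.9 FPKM.

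The highest Adamts genes were Adamts1 (28.4 FPKM, 13.4 to 63.8) and Adamts8 (27.6 FPKM, 1.49 to 96.0), both able to cut proteoglycans, and Adamts2 (26.5 FPKM, 12.5 to 63.0), which removes the amino-terminal propeptide of fibrillar procollagens. Adamts8 was the most uneven of the members named here, with a standard deviation of 1.36 on the log2 scale within groups. Adamts10, a protease tied to fibrillin microfibrils, averaged 18.2 FPKM and was the steadiest of those named, with 0.322. The order among Adamts1, Adamts8 and Adamts2 therefore lies within their spread.

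**Figure D1:**
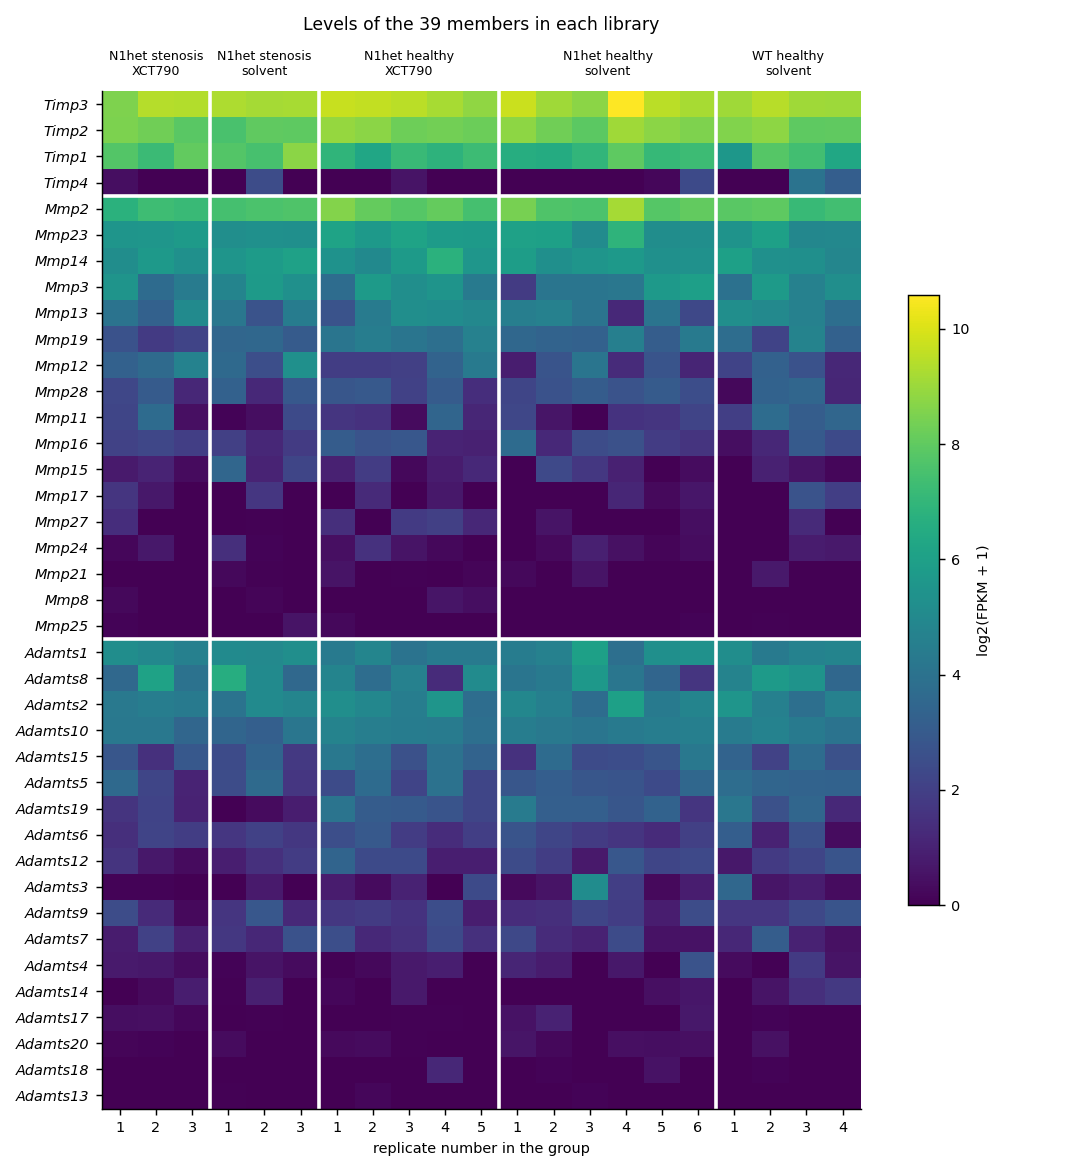
Levels of the 39 members in the 21 libraries, colour giving log2(FPKM + 1); rows are genes in order of mean level within Timp, Mmp and Adamts, columns are libraries by group, with the replicate number below. Timp3, Timp2, Timp1 and Mmp2 form the bright rows in all groups, and Adamts19 is darkest in the 3 solvent stenosis libraries.

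Some single libraries carried the extremes. N1het healthy library 4 was the highest of the 21 for Timp3 (1542 FPKM), Timp2 (535 FPKM), Mmp2 (574 FPKM), Mmp23 (116 FPKM) and Adamts2 (63.0 FPKM), and the lowest for Mmp13 (1.35 FPKM) and Adamts1 (13.4 FPKM). It is also 1 of the 6 libraries with over 16 M reads. Adamts3, another procollagen peptidase, read 34.99 FPKM in N1het healthy library 3 against a median of 0.453 FPKM over all 21.

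The question of which proteases and inhibitors differ in stenosis was put first to the N1het valves, as the stenosis minus healthy difference averaged over solvent and XCT790 (6 against 11 libraries). One member was called: Adamts19 fell. It encodes a secreted ADAMTS protease of unknown substrate whose loss causes heart valve disease in humans and aortic valve disease in mice. Its level was 2.00, 3.41 and 1.03 FPKM in stenosis XCT790 libraries and 0, 0.242 and 0.779 FPKM in stenosis libraries. It was 16.1, 7.35, 7.06, 5.66 and 3.66 FPKM in healthy XCT790 libraries, and healthy solvent libraries ran from 2.07 over a median of 8.21 to 20.4 FPKM. The solvent stenosis libraries lay below every healthy library of either agent, the XCT790 stenosis libraries lay below every healthy XCT790 library, and of all 6 only 1, at 3.41 FPKM, passed the lowest healthy one.

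The averaged difference of Adamts19 was -2.08 ± 0.42 (limma, adjusted p = 0.025), with means of 1.24 ± 1.27 FPKM in stenosis and 8.52 ± 5.30 FPKM in healthy valves (SD, n = 6 and 11). With solvent alone it was -2.72 ± 0.58 and was not called (adjusted p = 0.126). The whole reads behind the values numbered 43 in the 3 stenosis libraries against 4135 in the 6 healthy ones, and stenosis library 1 had 0 reads. WT valves stood at 17.1, 5.25, 10.2 and 1.35 FPKM, all above the 3 solvent stenosis libraries, with a solvent stenosis minus WT difference of -2.50 ± 0.63 (adjusted p = 0.188). The WT library at 1.35 FPKM lay within the stenosis XCT790 range of 1.03 to 3.41 FPKM. In the authors' deposited table, Adamts19 is the only member marked as changed, in stenosis against WT and in stenosis against healthy, 2 comparisons in which 1.35% and 1.26% of all genes carry the mark.

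The call of Adamts19 was close to the threshold, while its sign was negative in each alternative tried. Leaving out 1 library at a time kept the averaged difference between -2.23 and -1.94 but ended the call in 7 of 17 fits, with the adjusted p reaching 0.0957 without stenosis XCT790 library 3. The other losses came without stenosis library 1 (adjusted p = 0.0728), 2 (0.0606) or 3 (0.0699), healthy XCT790 library 1 (0.0588) or 2 (0.0543) and stenosis XCT790 library 1 (0.0506). Without the 6 libraries over 16 M reads it was -1.90 (adjusted p = 0.246). With the agent read from the contradicting field, where the contrast sets all 6 stenosis libraries against healthy XCT790 libraries 4 and 5, it was -1.50 (adjusted p = 0.670).

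Cell type markers moved with the same contrast. The 15 fibroblast and valve interstitial markers summed to 6716 to 8688 FPKM in the 6 stenosis libraries and to 8924 to 14166 FPKM in the 11 healthy N1het libraries, without overlap. All 15 had a negative averaged difference (median -0.60), 11 of them at an unadjusted p under 0.05 and 3 called, among them Dcn, which encodes the proteoglycan decorin. The 20 macrophage and monocyte markers summed to 2483 to 10406 FPKM in stenosis and to 1255 to 5259 FPKM in healthy N1het valves. All 20 had a positive averaged difference (median 0.90), 15 of them at an unadjusted p under 0.05. Among these 1 was called, Lyz2 (1.61 ± 0.32, limma, adjusted p = 0.0250). Neutrophil markers summed to 2.51 to 57.3 FPKM against 0.383 to 10.1 FPKM. Of the 3 tested, all had a positive averaged difference and 1 was called. It was Csf3r, at 9.62 ± 7.39 against 0.867 ± 0.583 FPKM (SD, n = 6 and 11), a difference of 2.21 ± 0.40 (limma, adjusted p = 0.0171). S100a8 and S100a9 were at 0 in 13 and 17 of the 21 libraries. With the mean macrophage marker level as a covariate the averaged Adamts19 difference was -1.98 ± 0.56 (adjusted p = 0.636), and with that of the fibroblast markers, an alternative chosen after seeing the data, -1.87 ± 0.64 (adjusted p = 0.938). Both values lay near -2.08 with a larger SE. Since the fibroblast sums did not overlap between stenosis and healthy N1het valves, that covariate and stenosis can hardly be told apart in the fit. The part of cell composition in the Adamts19 difference was not tested.

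**Figure D2:**
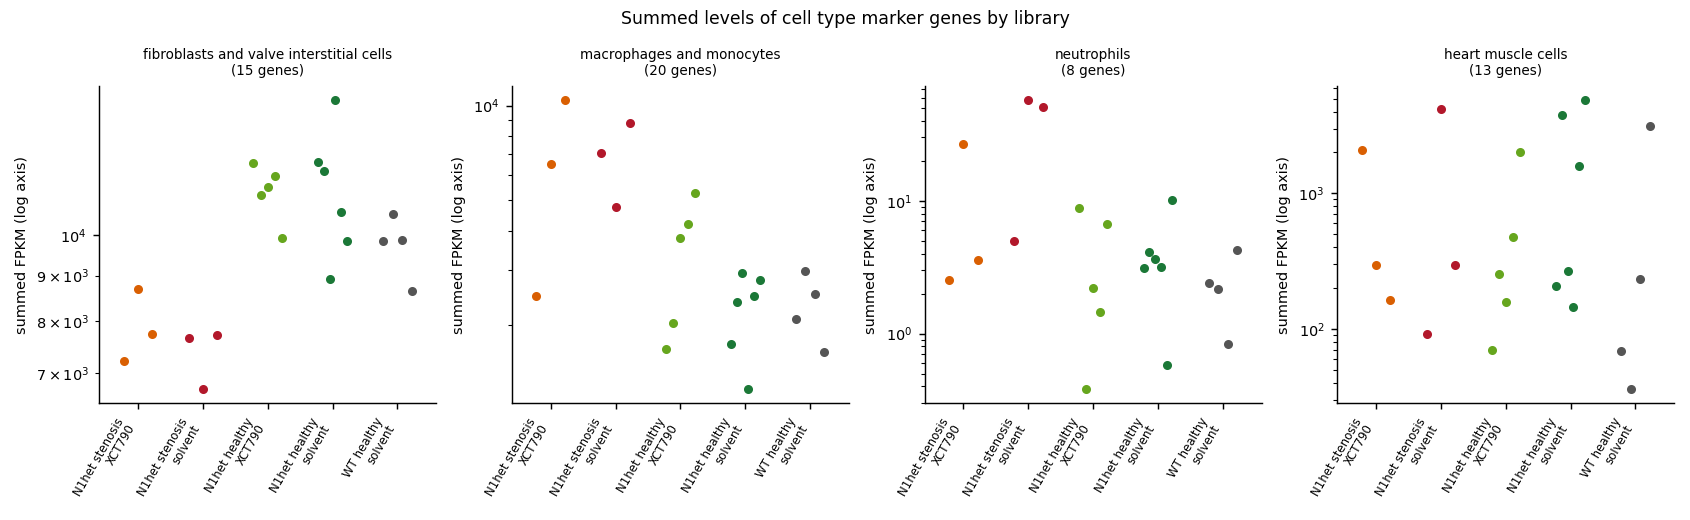
Summed FPKM (log axis) of marker genes of 4 cell types in each library (points), by group. Fibroblast and valve interstitial markers lie between 6716 and 8688 FPKM in the 6 stenosis libraries and at 8924 FPKM or above in healthy N1het libraries, macrophage markers tend the other way, and heart muscle markers vary within every group.

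Read against the background, the call of 1 of 27 members stood beside 0.374% of all 14966 genes (56 genes). At an unadjusted p under 0.05 there were 8 members, against 11.5% of all genes: 6 lower (5.49% of all genes) and 2 higher (6.01%). No member had 6 stenosis libraries all outside the range of the 11 healthy ones, as 0.147% of all genes did. Such a share was counted for no other comparison. The median difference of the 27 members was -0.25, beside 0.00 for all genes. Besides Adamts19, the 7 members at an unadjusted p under 0.05 were Mmp19, Mmp2, Adamts10, Timp2 and Adamts12 on the lower side and Timp1 and Mmp12 on the higher side, and none of these was called.

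**Figure D3:**
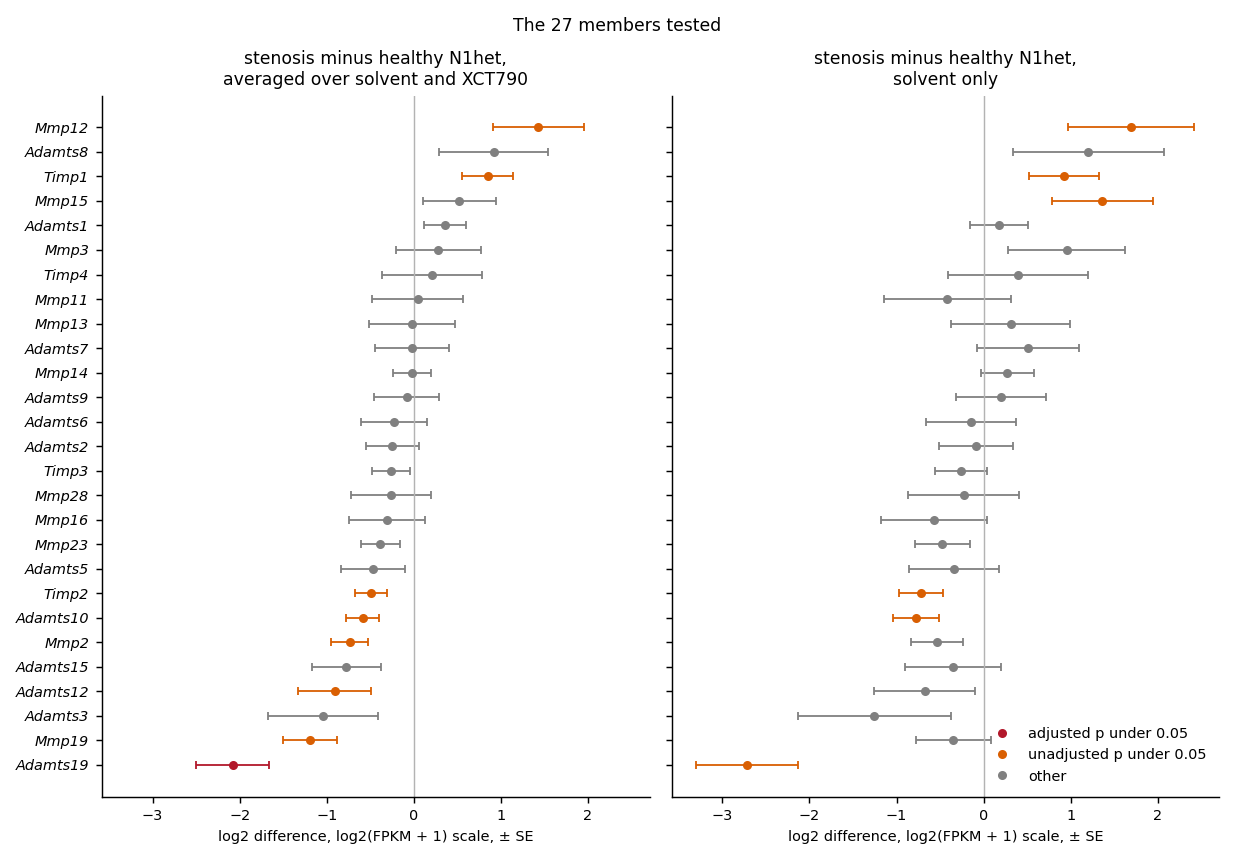
Log2 difference ± SE of stenosis minus healthy N1het valves for the 27 members tested, averaged over agents on the left and for solvent alone on the right, in order of the left panel; colour marks the adjusted and unadjusted p. Adamts19 stands at the lower end in both panels and Mmp12 at the upper end.

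Mmp19, a secreted protease found in many tissues, read 5.34, 2.53 and 3.52 FPKM in stenosis XCT790 libraries and 10.3, 10.7 and 7.12 FPKM in stenosis libraries. Healthy XCT790 libraries held 16.3, 21.2, 16.4, 13.7 and 24.1 FPKM and healthy ones 7.69 to 22.5 FPKM with a median of 10.05. Among N1het libraries the lowest values were those of stenosis with XCT790. The solvent stenosis libraries lay within the healthy N1het range or just under it. WT libraries ran from 3.35 to 25.8 FPKM, so the lowest of them lay within the stenosis XCT790 range. The averaged difference was -1.19 ± 0.31 (limma, adjusted p = 0.0984). It passed the threshold where only the 4 compared groups were fitted (adjusted p = 0.0362). With the fibroblast level as a covariate it was -0.71 (adjusted p = 0.973), and with the macrophage level -0.92 (adjusted p = 0.927). With solvent alone it was -0.35 ± 0.43 (unadjusted p = 0.424), and the interaction, the stenosis effect with XCT790 minus that with solvent, was -1.68 ± 0.62 (unadjusted p = 0.013, adjusted p = 1).

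Mmp2 read 108, 155 and 146 FPKM in stenosis XCT790 libraries and 177, 190 and 205 FPKM in stenosis libraries. It read 391, 273, 223, 274 and 179 FPKM in healthy XCT790 libraries and 194 to 574 FPKM, with a median of 243, in healthy ones. Of the 6 stenosis libraries, 4 lay below every healthy one, and the stenosis libraries at 190 and 205 FPKM lay within the healthy range of 179 to 574 FPKM. The averaged difference was -0.74 ± 0.21 (adjusted p = 0.148), -0.51 ± 0.17 among the 15 libraries under 16 M reads, and -0.09 with the fibroblast level as a covariate. Against WT, Mmp2 averaged 191 ± 14.3 FPKM in stenosis and 197 ± 52.0 FPKM in WT valves (SD, n = 3 and 4), a difference of -0.01 ± 0.32.

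Adamts10 read 18.2, 17.8 and 10.4 FPKM in stenosis XCT790 libraries and 9.97, 8.22 and 16.7 FPKM in stenosis libraries, against 25.9, 22.2, 20.6, 20.5 and 13.5 FPKM in healthy XCT790 libraries and 16.3 to 22.8 FPKM in healthy ones. Its stenosis libraries reached into the lower part of the healthy range. The averaged difference was -0.59 ± 0.19 (adjusted p = 0.203) and the solvent one -0.77 ± 0.26 (adjusted p = 0.315). Adamts12, which can cut cartilage oligomeric matrix protein, averaged 1.36 ± 0.944 FPKM in stenosis and 3.81 ± 2.68 FPKM in healthy N1het valves (SD, n = 6 and 11), a difference of -0.91 ± 0.42 (adjusted p = 0.407).

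The inhibitors went different ways by value. Timp1, a secreted inhibitor that inflammatory signals induce, read 214, 147 and 265 FPKM in stenosis XCT790 libraries and 216, 180 and 425 FPKM in stenosis libraries. Healthy XCT790 libraries held 121, 76.2, 142, 116 and 154 FPKM, and healthy ones 91.8 to 252 FPKM with a median of 130. Each stenosis library but 1 exceeded every healthy one apart from healthy library 4. The averaged difference was 0.85 ± 0.29 (adjusted p = 0.237) and, in the 15 libraries under 16 M reads, 0.92 ± 0.27. With the macrophage level as a covariate it was 0.57.

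Timp2, the inhibitor that also takes part in activating pro-MMP2, read 358, 313 and 238 FPKM in stenosis XCT790 libraries and 187, 253 and 250 FPKM in stenosis libraries. Healthy XCT790 libraries held 483, 428, 305, 319 and 296 FPKM and healthy ones 238 to 535 FPKM with a median of 401. The averaged difference was -0.49 ± 0.18 (adjusted p = 0.277), and 0.05 with the fibroblast level as a covariate, which turns its sign. Timp3, the inhibitor bound to the matrix, averaged 585 ± 113 FPKM in stenosis and 734 ± 305 FPKM in healthy N1het valves (difference -0.26 ± 0.21, unadjusted p = 0.236).

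Within a library, the Timp1 to Timp2 ratio put both inhibitors side by side. It was 0.468 to 1.70 in the 6 stenosis libraries (median 0.915) and 0.178 to 0.529 in the 11 healthy N1het libraries (median 0.363), and WT libraries had 0.127 to 0.687. A ratio shows unequal change and not which gene moved. The summed Timp level over the summed Mmp level was 3.41 to 3.67 in stenosis XCT790 libraries, 2.76 to 2.95 in stenosis, 1.82 to 2.74 in healthy XCT790, 2.30 to 3.32 in healthy and 2.35 to 2.99 in WT libraries. These ratios were formed after seeing the values and carry no test.

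**Figure D4:**
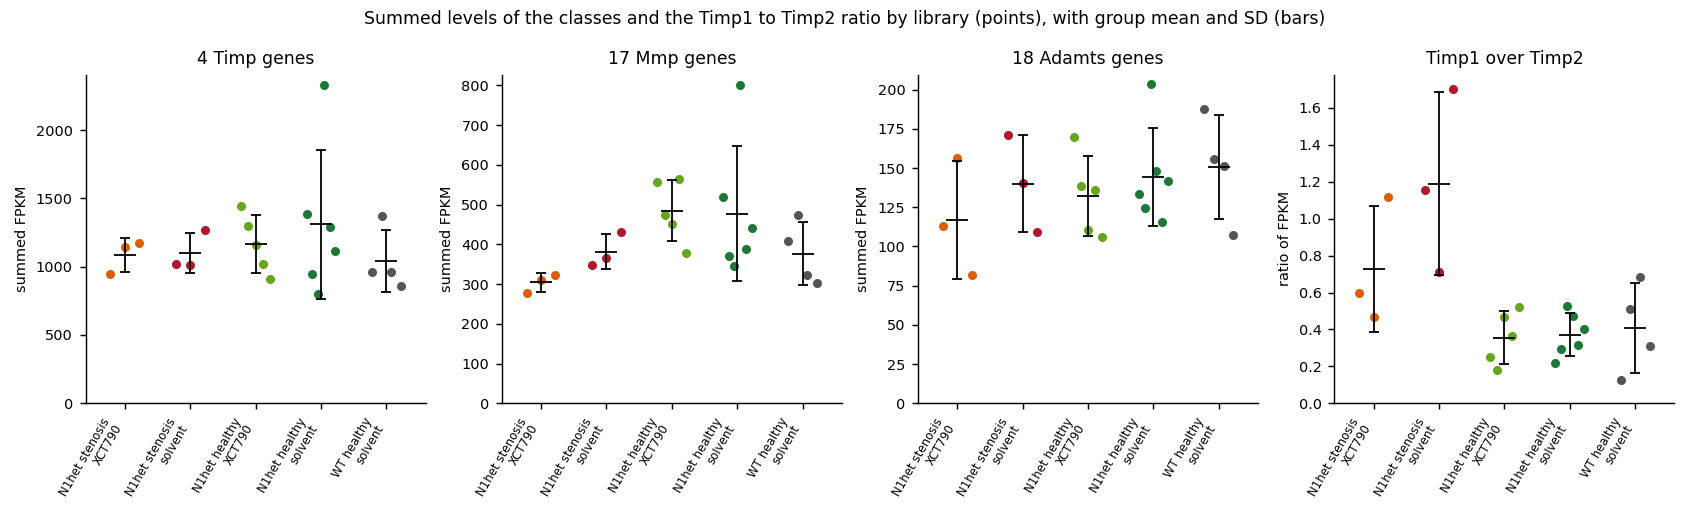
Summed FPKM of the 4 Timp, 17 Mmp and 18 Adamts genes and the ratio of Timp1 to Timp2, by library (points) with group mean and SD (bars). The Timp1 to Timp2 ratio lies between 0.468 and 1.70 in stenosis libraries and at 0.529 or below in healthy N1het libraries, while the Adamts sums of all groups overlap.

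Mmp12, the metalloelastase that macrophages secrete, read 8.78, 11.5 and 24.7 FPKM in stenosis XCT790 libraries and 11.4, 4.80 and 39.2 FPKM in stenosis libraries. Healthy XCT790 libraries held 2.78, 2.79, 3.00, 9.43 and 19.1 FPKM, and healthy ones 0.779 to 16.2 FPKM with a median of 3.56. The groups overlapped through a few high healthy libraries. The averaged difference was 1.43 ± 0.52 (adjusted p = 0.275). With the macrophage level as a covariate it was 0.06, with the fibroblast level it turned to -0.53, and by the contradicting agent field it was -0.0030. The solvent difference of 1.69 ± 0.73 turned to -0.35 with the macrophage and -0.81 with the fibroblast level. Its chromosome 9 neighbours Mmp3 and Mmp13, which share the promoter motif shown above, had averaged differences of 0.28 ± 0.48 and -0.02 ± 0.49 (unadjusted p = 0.566 and 0.966).

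**Figure D5:**
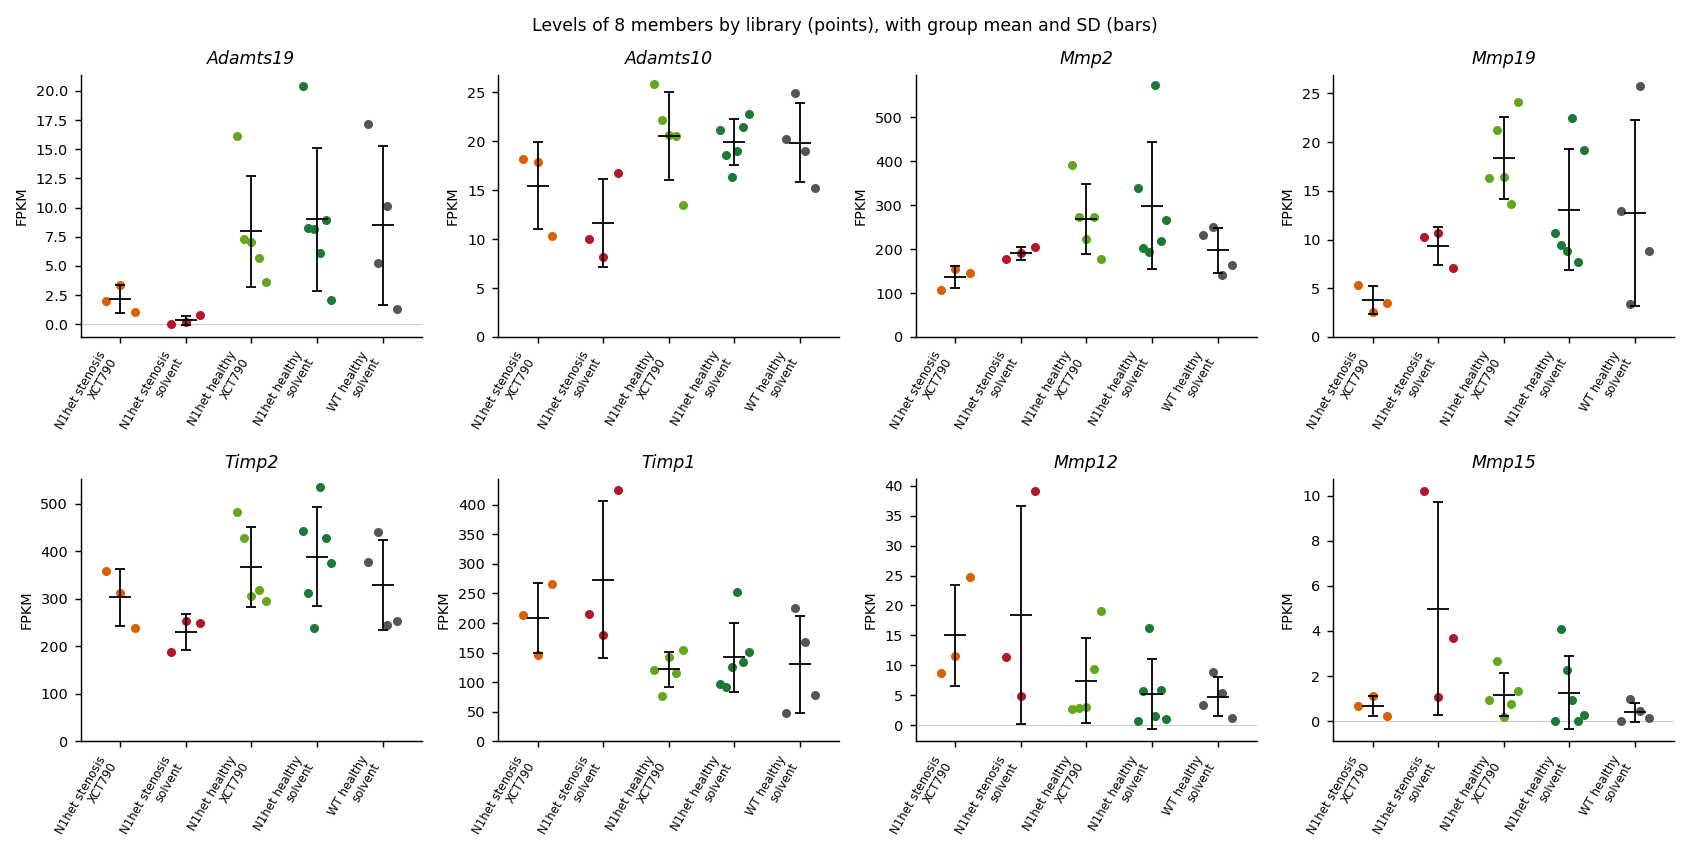
FPKM of 8 members in each library (points), with group mean and SD (bars), by group. Adamts19 is at 3.41 FPKM or below in all stenosis libraries, Timp1 and Mmp12 tend to be higher there, and Mmp15 is led by 1 stenosis library at 10.2 FPKM.

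In stenosis against healthy with solvent alone (3 against 6 libraries), no member was called, beside 0.0334% of all genes (5 genes; 0 by voom, with 7 members at an unadjusted p under 0.05). At an unadjusted p under 0.05 there were 6 members, against 9.6% of all genes: Adamts19, Adamts10 and Timp2 lower (5.01% of all genes) and Mmp15, Mmp12 and Timp1 higher (4.59%). The median of the 27 members was -0.23, beside -0.04 for all genes. Mmp15, a membrane-type protease, read 10.2, 1.09 and 3.67 FPKM in stenosis libraries against 0 to 4.07 FPKM in healthy ones. One library thus carried much of its difference of 1.36 ± 0.58 (adjusted p = 0.442), which was 0.75 without it. By the contradicting label field, this stenosis against healthy comparison changes disease and agent together.

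In stenosis against WT (3 against 4 libraries), again 0 members were called by limma or voom, beside 0.0334% of all genes. At an unadjusted p under 0.05 there were 5 members, against 10.4% of all genes: Adamts19, Mmp11 and Adamts10 lower, Mmp15 and Timp1 higher. The median was -0.06, beside 0.06 for all genes. Mmp15 stood at 0, 0.975, 0.464 and 0.137 FPKM in WT libraries and at 1.09 to 10.2 FPKM in stenosis libraries. Its difference was 1.83 ± 0.63 (adjusted p = 0.322). Mmp11, stromelysin-3 of stromal cells, read 0.0772, 0.307 and 4.15 FPKM in stenosis against 2.93, 12.4, 7.84 and 10.3 FPKM in WT libraries, a difference of -2.14 ± 0.79 (adjusted p = 0.359). This comparison changes genotype and disease together and, by the contradicting label field, agent as well.

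Healthy N1het against WT valves (6 against 4 libraries) asks for the Notch1 genotype without stenosis. No member and no gene was called by limma (0%), while 1111 genes (7.42%) and 1 member had an unadjusted p under 0.05, and voom on recovered reads called 0 genes, with 1367 at that p. The member was Mmp11, at 0.0343 to 3.71 FPKM with a median of 2.05 in healthy N1het libraries, of which 2 exceeded the lowest WT library. Its difference was -1.72 ± 0.67 (adjusted p = 0.571). Healthy XCT790 libraries of the same genotype held 2.13, 1.87, 0.228, 9.92 and 1.21 FPKM of Mmp11, so 1 of them lay within the WT range of 2.93 to 12.4. Next by p came Mmp2 (0.52 ± 0.27), Mmp13 (-1.20 ± 0.63) and Timp4 (-1.37 ± 0.73), at unadjusted p of 0.0668 to 0.0747. Timp4 rested on 2 WT libraries at 15.4 and 7.89 FPKM, with the other 2 at 0, and the part of muscle tissue in this was not tested. In WT libraries 3 and 4 smooth muscle markers summed to 633 and 3544 FPKM and heart muscle markers to 234 and 3151 FPKM, against 178 and 235 FPKM and 69.1 and 36.1 FPKM in WT libraries 1 and 2. In this comparison 7 of 8 smooth muscle markers were lower by value in healthy N1het valves (median -1.15) and 0 were called, while 13 of 13 heart muscle markers were higher by value (median 1.70) and 0 were called. The median of the 27 members was 0.17, beside 0.09 for all genes.

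The XCT790 comparisons called no gene and no member by limma (0%) or by voom, and they share libraries with the stenosis comparisons. In healthy N1het valves 0 members had an unadjusted p under 0.05, against 2.65% of all genes (397 genes by limma, 474 by voom). The smallest belonged to Adamts1, at 20.2 ± 4.27 FPKM with XCT790 and 33.2 ± 18.1 FPKM with solvent (-0.54 ± 0.29, unadjusted p = 0.0756), and Mmp13, at 25.4 ± 12.8 and 13.9 ± 9.31 FPKM (1.01 ± 0.59, unadjusted p = 0.0989; SD, n = 5 and 6). Adamts1 was 63.8 FPKM in healthy library 3 and Mmp13 1.35 FPKM in healthy library 4. Macrophage and monocyte markers were higher by value in 19 of 20 in the same comparison (median 0.55), 5 of them at an unadjusted p under 0.05 and 0 called, and with their level as a covariate the Mmp13 difference was 0.25. Adamts15 (0.75 ± 0.47) and Mmp19 (0.54 ± 0.37) followed. Without the 6 libraries over 16 M reads, Adamts15 was at 0.04 ± 0.55, Mmp19 at 0.68 ± 0.50 and Mmp13 at 1.33 ± 0.53. The median of the members was 0.02, beside 0.04 for all genes.

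In stenotic valves 2 members had an unadjusted p under 0.05 for XCT790 against solvent, beside 3.35% of all genes (501 genes by limma, 392 by voom). Mmp15 read 0.680, 1.10 and 0.235 FPKM with XCT790 against the 10.2, 1.09 and 3.67 FPKM given above (-1.55 ± 0.67, adjusted p = 1). Mmp19 lay at 2.53 to 5.34 FPKM with XCT790, under all 3 solvent libraries at 7.12 FPKM or more (-1.13 ± 0.50, adjusted p = 1). Adamts19 was at 1.03 to 3.41 FPKM with XCT790 and 0 to 0.779 FPKM with solvent, a difference of 1.20 ± 0.67 (unadjusted p = 0.0875). Mmp2 was lower by value (-0.50 ± 0.34, unadjusted p = 0.162). The share of all genes without overlap between these 3 and 3 libraries was not counted. The median of the members was -0.27, beside 0.09 for all genes. Under the contradicting label field there would be no solvent stenosis library, and this comparison could not be formed. The interaction called 0 genes by limma, with 446 genes and 1 member, Mmp19, at an unadjusted p under 0.05.

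Partners of the members were read from lists of genes that act with them. Of 8 tested activators and plasminogen system genes, 2 were higher at an unadjusted p under 0.05 in averaged stenosis and 0 were called. Among them was Plaur, the urokinase receptor, at 36.0 ± 14.6 FPKM in stenosis and 19.1 ± 11.3 FPKM in healthy valves (0.94 ± 0.29, adjusted p = 0.171). Of 16 cathepsins and other matrix proteases, 3 were higher and 1 lower at that p with 0 called. Ctss, cathepsin S, a macrophage marker as well, led with 443 ± 279 against 160 ± 87.9 FPKM (1.38 ± 0.41, adjusted p = 0.156), and Adam19 was the lower one (-0.85 ± 0.31, adjusted p = 0.277).

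Of 15 tested inhibitors, receptors and ADAMTS-like genes, 6 were lower and 0 higher at an unadjusted p under 0.05, with a median of -0.43 and 0 called, beside 5.49% of all genes lower, 6.01% higher and a median of 0.00. The same shares of all genes apply to the other partner lists. Adamtsl5, an ADAMTS-like protein without protease domain, stood at 11.7 ± 5.15 FPKM in stenosis and 22.4 ± 5.57 FPKM in healthy valves (-0.95 ± 0.22, adjusted p = 0.0645), and Lrp1, the uptake receptor for several of these proteases, at 75.1 ± 14.8 and 120 ± 32.3 FPKM (-0.65 ± 0.19, adjusted p = 0.150). Of 17 tested substrates, 2 were called, both lower: Dcn at 3013 ± 316 and 4693 ± 510 FPKM (-0.64 ± 0.11, adjusted p = 0.0142) and Vcan, the versican that ADAMTS proteases cut, at 95.2 ± 21.4 and 218 ± 85.6 FPKM (-1.12 ± 0.25, adjusted p = 0.0491). Both calls, like those of all 56 genes (0.374%), were lost without the libraries over 16 M reads, with the macrophage or fibroblast covariate and by the agent field. In all, 6 substrates were lower and 2 higher at that p, with a median of -0.27. Values here are means ± SD with n = 6 and 11, and Dcn also belongs to the fibroblast markers described above.

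The other members with the highest levels were called in no comparison. Timp3 read 371, 684 and 669 FPKM in stenosis XCT790, 620, 572 and 591 FPKM in stenosis, 844, 791, 714, 588 and 458 FPKM in healthy XCT790 and 536, 707, 534 and 520 FPKM in WT libraries, with 432 to 1542 FPKM (median 657) in healthy ones. Mmp14 read 35.3, 50.1 and 39.05 FPKM in stenosis XCT790, 44.9, 55.0 and 65.3 FPKM in stenosis, 41.1, 31.3, 54.1, 108 and 46.7 FPKM in healthy XCT790 and 64.2, 38.5, 38.1 and 28.3 FPKM in WT libraries, with 37.5 to 59.3 FPKM (median 42.6) in healthy ones. Every pair of groups overlapped for both genes. Mmp23 read 44.9, 46.5 and 53.2 FPKM in stenosis XCT790, 36.5, 38.9 and 37.8 FPKM in stenosis, 69.4, 50.9, 69.1, 55.1 and 53.8 FPKM in healthy XCT790 and 42.0, 63.8, 29.2 and 30.1 FPKM in WT libraries, with 33.98 to 116 FPKM (median 49.9) in healthy ones. Mmp23 had differences of 0.34 ± 0.37 (stenosis XCT790 minus stenosis, unadjusted p = 0.358) and -0.38 ± 0.23 (averaged stenosis, unadjusted p = 0.106).

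Adamts1 read 35.7, 29.5 and 23.7 FPKM in stenosis XCT790, 32.7, 30.9 and 36.8 FPKM in stenosis, 19.9, 27.2, 15.5, 19.7 and 18.9 FPKM in healthy XCT790 and 35.2, 19.7, 24.9 and 26.4 FPKM in WT libraries, with 13.4 to 63.8 FPKM (median 30.8) in healthy ones. Its averaged stenosis difference was 0.35 ± 0.24 (limma, unadjusted p = 0.159). Without the 6 libraries over 16 M reads its XCT790 difference in healthy valves was -1.08 ± 0.29 (limma, unadjusted p = 0.00221). In that setting 0 genes were called, and 713 of 14966 had an unadjusted p under 0.05. Adamts2 read 18.7, 21.8 and 18.7 FPKM in stenosis XCT790, 15.6, 32.3 and 27.2 FPKM in stenosis, 36.2, 28.7, 21.3, 45.2 and 12.8 FPKM in healthy XCT790 and 44.5, 23.4, 13.8 and 24.2 FPKM in WT libraries, with 12.5 to 63.0 FPKM (median 24.6) in healthy ones. Adamts8 read 10.9, 68.5 and 15.0 FPKM in stenosis XCT790, 96.0, 33.0 and 11.02 FPKM in stenosis, 26.7, 12.7, 24.4, 1.49 and 33.6 FPKM in healthy XCT790 and 25.6, 54.3, 43.0 and 10.7 FPKM in WT libraries, with 2.08 to 49.2 FPKM (median 16.5) in healthy ones. Both overlapped between all groups, and Adamts8 held high and low libraries in each of them.

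Mmp13 read 15.4, 8.84 and 32.9 FPKM in stenosis XCT790, 17.2, 5.61 and 21.1 FPKM in stenosis, 5.49, 20.4, 36.3, 34.996 and 30.0 FPKM in healthy XCT790 and 36.9, 31.0, 24.2 and 13.2 FPKM in WT libraries, with 1.35 to 23.9 FPKM (median 16.1) in healthy ones. Adamts15, which cuts versican and aggrecan, read 6.05, 1.79 and 6.54 FPKM in stenosis XCT790, 4.29, 9.61 and 2.34 FPKM in stenosis, 17.8, 13.1, 5.19, 15.1 and 9.26 FPKM in healthy XCT790 and 9.41, 3.26, 12.5 and 5.19 FPKM in WT libraries, with 1.85 to 18.1 FPKM (median 5.28) in healthy ones. The 3 highest Adamts15 libraries were healthy N1het ones, and its averaged stenosis difference was -0.78 ± 0.40 (unadjusted p = 0.0623). Timp4 was above 1 FPKM in 4 libraries: 4.54 FPKM in stenosis library 2, 4.19 FPKM in healthy library 6, and 15.4 and 7.89 FPKM in WT libraries 3 and 4.

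The remaining members lay low. Of those tested and not yet given, Mmp28 and Mmp16 averaged 5.18 and 3.77 FPKM, Adamts5, the versican-cleaving aggrecanase, 7.37 FPKM, and Adamts6, Adamts9 and Adamts7 2.36 to 3.20 FPKM. None of them reached an unadjusted p under 0.05 in averaged stenosis. The 12 untested members were Mmp17, Mmp27, Mmp24, Mmp21, Mmp8 and Mmp25 and Adamts4, Adamts14, Adamts17, Adamts20, Adamts18 and Adamts13, with means of 0.0154 to 0.826 FPKM. Adamts4, an aggrecanase, reached 5.57 FPKM in 1 healthy library, and Mmp8, the neutrophil collagenase, was at 0 in 17 of 21 libraries. Mmp8 and Mmp27 lie in the chromosome 9 cluster of Mmp3, Mmp12 and Mmp13 and averaged 0.0530 and 0.585 FPKM. Whether reads were counted by strand is not stated. Timp1, Timp3 and Timp4 overlap the genes Syn1, Syn3 and Syn2, which reached 6.24, 3.37 and 0.855 FPKM at most.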

How the data were processed

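RNA of mouse aortic valves was purified with a micro column kit and amplified into RNA-seq libraries, per the labels' protocols. Tools named in the submitters' processing notes are HISAT2, SAMtools, Picard and FastQC, with build mm9. No source used here gives versions, counting program, annotation or strand. The authors deposited FPKM per gene and library, their group means (used for checking only) and 0 or 1 marks of changed genes, whose test no source used here gives. Whole reads were recovered from the FPKM steps of all 20872 genes within 0.01 reads. They gave the depth and a voom alternative. Intervals were not formed, since amplified reads are not independent molecules.

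limma 3.58.1 (R 4.3.3, statmod 1.5.0) was run on log2(FPKM + 1) for 14966 genes that average 1 FPKM or more, as 5 group means with trended, robust variances. This scale understates changes of low genes. Adjustment by Benjamini and Hochberg was over all tested genes of a contrast. The solvent stenosis contrast alone was also run on simulated data with independent noise. That run does not cover the averaged contrast or differences in cell composition. Members and lists were chosen with earlier results of these data known. Library values are printed for called members, the 4 smallest p of each contrast, members with an unadjusted p under 0.05 in at least 2 contrasts, all Timp genes and the 3 highest Mmp and Adamts genes. Other members named were chosen after their values were seen. Alternatives were the pseudocount (0.1), filters, an adjusted p under 0.1, scalings, covariates, voom, only the compared groups, a replicate block, the agent field and libraries left out. Sequences are from the RefSeq promoter table. Some partner genes are not reported here.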

Additional observations from a re-analysis of the deposited data

Results flagged for a closer look

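A library stood far from the others of its group in 3 of 54 combinations of a named member and a group of 4 to 6 libraries, and chance gives about 1 in 20. Timp3 was 707 FPKM in WT library 2, with the next at 536 FPKM. Timp4 was 0.465 FPKM in healthy XCT790 library 3, with the next at 0.0285 FPKM, and 4.19 FPKM in N1het healthy library 6, with the next at 0.130 FPKM. Both Timp4 flags rest on libraries at or near 0.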

How the results depend on the processing

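Across 35 settings, 688 of 711 values of named members kept their direction and side of the threshold, 12 lost and 6 gained the call, and 5 turned sign: Mmp12 in solvent stenosis with the macrophage (-0.35) or fibroblast covariate (-0.81), in averaged stenosis with the fibroblast covariate (-0.53) or the agent field (-0.0030), and Timp2 there with the fibroblast covariate (0.050). The fibroblast covariate and upper-quartile scaling were chosen after seeing the data. The cause of these shifts was not tested. Of the 30 results followed, only Adamts19 in averaged stenosis was called in the main fit, so only it could lose a call. The 12 lost calls are all its own, those given in the report and that with voom (adjusted p = 0.103). The 688 kept values therefore say little about how firm that call is. In solvent stenosis Adamts19 was called with pseudocount 0.1 (adjusted p = 0.0236), the replicate block (0.0231), the heart muscle covariate (0.0493) and without healthy library 6 (0.0363).

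Averaged stenosis had 56 genes called, 148 at an adjusted p under 0.1, 97 with the replicate block, and 0 without the libraries over 16 M reads, with either the macrophage or fibroblast covariate or by the agent field (2 to 78 with a library left out). Members called numbered 1, against 2 at an adjusted p under 0.1 or with only the compared groups, and 0 without the deep libraries, with voom, by the agent field or with the macrophage or fibroblast covariate (0 to 1 with a library left out). Members at an unadjusted p under 0.05 numbered 8, against 5 without the deep libraries, 3 with the macrophage and 2 with the fibroblast covariate, and 2 by the agent field.

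Solvent stenosis had 5 genes called, 8 at an adjusted p under 0.1, 14 with only the compared groups, 19 with the replicate block, 10 with the heart muscle covariate and 0 without the deep libraries, with voom or with the macrophage or fibroblast covariate (2 to 11 with a library left out). Members called were 0, against 1 with pseudocount 0.1, the block or the heart muscle covariate (0 to 1 with a library left out), and 6 at an unadjusted p under 0.05 became 1 with the macrophage and 2 with the fibroblast covariate (3 to 7). Stenosis against WT had 5 genes called, 11 at an adjusted p under 0.1, 9 with median-of-ratios scaling, 3 with a mean of at least 5 FPKM or the block, and 0 with only the compared groups, without the deep libraries, with voom or with a heart muscle, macrophage or fibroblast covariate (0 to 3). Its 5 members at an unadjusted p under 0.05 became 3 with a mean of at least 5 FPKM or the macrophage or fibroblast covariate (3 to 6).

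Healthy N1het against WT had 0 genes called (0 to 5 with a library left out) and 1 member at an unadjusted p under 0.05, against 2 without a filter, without the deep libraries or with upper-quartile scaling, 0 with a mean of at least 5 FPKM, 3 with the block or voom and 4 with the heart muscle covariate (1 to 3). XCT790 in healthy valves had 0 genes called and 1 by the agent field, and 0 members at an unadjusted p under 0.05, against 2 without a filter, 3 without the deep libraries, 1 with voom or the fibroblast covariate and 4 by the agent field (0 to 1). XCT790 in stenosis had 0 genes called and 2 without a filter (0 to 2), and 2 members at an unadjusted p under 0.05, against 1 with a mean of at least 5 FPKM, only the compared groups or voom (0 to 2).

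Deviations of the 34 same-numbered pairs of libraries correlated by -0.11 to 0.13, with 3 over 0.1. That lies within the -0.18 to 0.24 of the 139 other-numbered pairs, so the block results are given here only. Whether libraries of the same number were processed together was not tested. Differences in genes near 0 are limited by depth, since each library had 12.2% to 26.7% of genes at 0.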
